A study of Mus musculus with 7 samples.

Results

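The genes of 10 subunits of the BAF complex were examined for binding of Chd7, H3K27ac and Top2b in the mouse cerebellum. They are Smarca4, Smarca2, Arid1a, Arid1b, Smarcc1, Smarcc2, Smarcb1, Smarce1, Actl6a and Actl6b. All macs2 peaks from granule neuron progenitors (GNPs) were taken whose centre lay in 1 of these genes or within 50 kb of it (mm10, GENCODE M21). This gave 79 of 33442 peaks, of which 75 were H3K27ac peaks of WT GNPs, 4 were Chd7 peaks of WT GNPs and 0 were Chd7 peaks of Chd7-deficient GNPs. Top2b peaks were placed in the same windows and comprised 28 of 17030 from WT granule neurons (CGNs) and 48 of 21505 from Chd7-deficient CGNs.

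ChIP-seq recovers the DNA that an antibody pulls down with a protein or histone mark, and a peak is a place where the recovered fragments pile up over the background. H3K27ac marks active promoters and enhancers, and Chd7 is an ATP-dependent chromatin remodeller of the chromodomain family. Top2b is a topoisomerase that relieves DNA torsion, and the study describes it as the only topoisomerase II expressed in CGNs. GNPs are the dividing cells of the external granule layer, which Atoh1 specifies and which give rise to CGNs. All cells came from mice at P7, labelled C57BL/6 and given as C57BL/6N in the study's methods. GNPs were purified on a percoll gradient and used fresh for Chd7 and H3K27ac, whereas CGNs were obtained by culturing GNPs for 48 h without Sonic hedgehog. Chd7-deficient cells came from Atoh1-Cre::Chd7 f/f mice, in which Cre removes Chd7 in the Atoh1 lineage, and some Chd7 protein remains in the posterior lobe. Each condition had 1 sample of cells from pups whose number per sample is not stated, so the intervals given cover counting error only and no difference was tested between animals.

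The BAF complex uses ATP to slide and eject nucleosomes and keeps enhancers and promoters accessible. It carries 1 of 2 ATPases, Smarca4 or Smarca2, and 1 of 2 ARID subunits, Arid1a or Arid1b, around a core that contains Smarcc1, Smarcc2, Smarcb1 and Smarce1. Neural progenitors incorporate the actin-related subunit Actl6a, and neurons leaving the cell cycle replace it with Actl6b. The question addressed was where Chd7, itself a remodeller, and H3K27ac lay at the genes of this second remodeller.

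Chd7 peaks were found at 3 of the 10 genes, namely Smarca4, Smarca2 (2 peaks) and Arid1a. Among all protein-coding genes, 14.3% had a Chd7 peak centre within 50 kb. The sequences of 101 bp centred on the 4 summits are shown, since they are the places where Chd7 was found at these genes. They are read 5′ to 3′ on the plus strand of GRCm38 with matches to any of 10 searched motifs in capitals. The windows are chr9:21616032-21616132 at the Smarca4 start, chr19:26606683-26606783 in an intron near the first start of Smarca2, chr19:26747918-26748018 at the internal starts of Smarca2, and chr4:133752784-133752884 in a coding exon of Arid1a.
Smarca4: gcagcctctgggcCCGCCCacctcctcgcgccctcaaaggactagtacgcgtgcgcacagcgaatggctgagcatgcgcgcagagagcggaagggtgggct
Smarca2, near the first start: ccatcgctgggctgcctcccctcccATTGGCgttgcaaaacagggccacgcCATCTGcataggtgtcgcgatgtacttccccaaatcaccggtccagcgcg
Smarca2, internal starts: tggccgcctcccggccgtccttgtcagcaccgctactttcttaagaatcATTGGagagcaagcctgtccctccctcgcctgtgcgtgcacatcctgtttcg
Arid1a: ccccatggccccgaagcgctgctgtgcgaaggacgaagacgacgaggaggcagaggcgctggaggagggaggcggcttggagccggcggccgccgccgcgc

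The motifs were searched on both strands. They were the general E-box CANNTG, its variants CAGCTG and also CAGATG, the nuclear factor I core TTGGC, the CCAAT box, the GC box GGGCGG, the cyclic AMP element TGACGTCA, the TATA box TATAAA, the ETS site CCGGAAGT and the Sox site ACAAAG. Matches of different motifs can overlap, and both variants are E-boxes. The Smarca2 window near the first start held 1 E-box of the form CAGATG, read here on the other strand as CATCTG, the kind of site bound by basic helix-loop-helix proteins. It also held 1 TTGGC, overlapping a CCAAT on the other strand. CAGATG was present in 14.1% and TTGGC in 27.7% of 1902 WT Chd7 summit windows, compared with 7.79% and 16.7% of 31395 H3K27ac summit windows. The general CANNTG was in 44.7% of the Chd7 windows and 37.2% of the H3K27ac windows. The Smarca4 window held 1 GGGCGG, the GC box bound by Sp proteins, which was in 18.6% of Chd7 windows and 9.61% of H3K27ac windows. The window at the internal Smarca2 starts held 1 CCAAT, found in 13.6% of Chd7 windows and 9.51% of H3K27ac windows. The Arid1a window held none of the 10 motifs. The windows contained 10, 8, 7 and 14 CpG in the order shown, and the GC content ranged from 59.4% to 75.2%.

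At Smarca4, which encodes the ATPase also known as Brg1 (ENSMUSG00000032187.16, chr9:21616169-21704230, plus strand), the Chd7 peak was chr9:21615895-21616618. Its summit was 87 bp upstream of the gene start. The pileup, meaning how many fragments cover the summit, was 21 (95% Poisson interval 13.0 to 32.1), with a 4.41-fold enrichment over the local background and a −log10 q of 5.15. Of the 1946 WT Chd7 peaks, 711 had a higher −log10 q.

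Smarca2, the gene of the alternative ATPase Brm (ENSMUSG00000024921.17, chr19:26605050-26778322, plus strand), had 2 Chd7 peaks, near its first start and at internal starts. The peak near the first start, chr19:26606520-26607004, lay in an intron 1683 bp downstream of the gene start, with a pileup of 20 (12.2 to 30.9), 4.84-fold enrichment and a −log10 q of 5.67. The second peak, chr19:26747869-26748235, lay 142918 bp into the gene and 221 bp from the nearest of a cluster of 16 annotated internal starts, from which shorter transcripts begin. It was the weakest of the 4, with a pileup of 16 (9.15 to 26.0), 3.31-fold enrichment and a −log10 q of 2.17, a value exceeded by 1817 of the 1946 WT peaks.

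Arid1a, the gene of an ARID subunit that binds DNA with little sequence preference (ENSMUSG00000007880.16, chr4:133679008-133756769, minus strand), had its Chd7 peak at chr4:133752633-133753066. The summit fell in a coding exon, 777 bp downstream of the middle of 3 annotated starts, with a pileup of 17 (9.90 to 27.2), 4.02-fold enrichment and a −log10 q of 3.51. The Poisson intervals of all 4 pileups overlapped, so the order of the peaks in height was not resolved. Arid1b, the paralogue of Arid1a, had no Chd7 peak although it is the longest of the 10 genes at 353 kb.

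**Figure D1:**
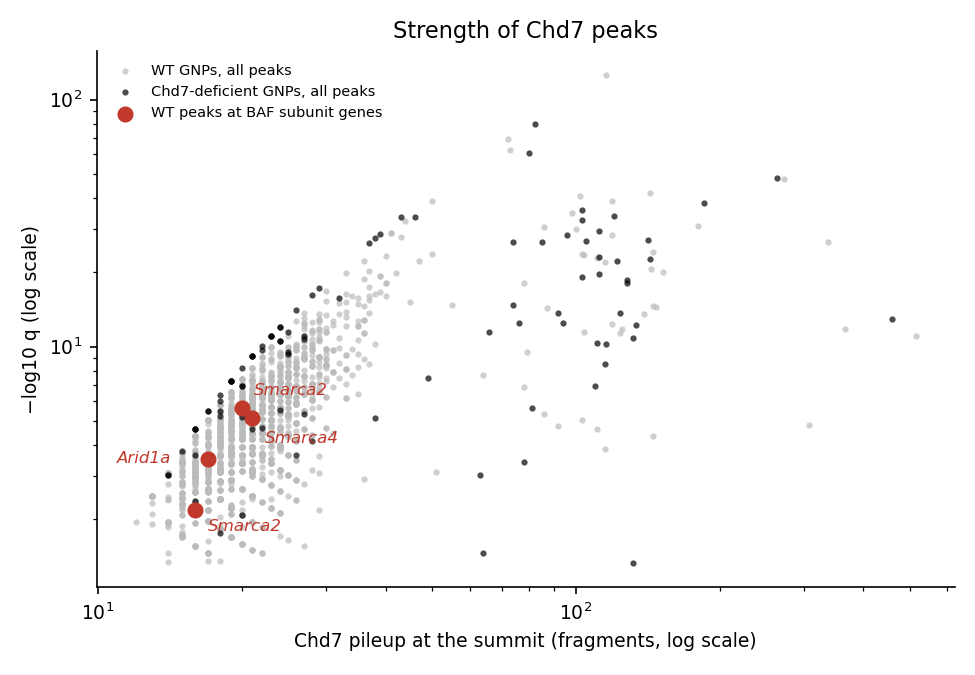
Pileup at the summit in fragments (x axis, log scale) against −log10 q (y axis, log scale) for every Chd7 peak of WT GNPs (grey) and of Chd7-deficient GNPs (black), 1 library each, with the 4 WT peaks at BAF subunit genes in red. The red points have pileups of 16 to 21, at or below the median of 21 of the WT peaks. By −log10 q they range from the 6.63 to the 71.0 percentile of the WT peaks.

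By −log10 q the 4 peaks stood at the 71.0, 63.5, 32.6 and 6.63 percentile of the WT Chd7 peaks, in the order Smarca2 near its first start, Smarca4, Arid1a and Smarca2 at its internal starts. At 3 of the 10 genes a Chd7 peak reached within 1 kb of an annotated start, compared with 4.00% of all protein-coding genes and 8.29% of those with H3K27ac at a start. Since all 10 genes carried H3K27ac at a start, the share of such genes with a Chd7 peak centre within 50 kb is the closer background, and it was 21.3%. Longer genes offer more room for a peak. Of the members, 3 of 5 genes of at least 75 kb and 0 of 5 shorter genes had Chd7, while over all genes the shares were 19.9% and 13.3%. This split rested on Arid1a (77.8 kb) and Smarca4 (88.1 kb), since with a limit of 100 kb it was 1 of 3 longer and 2 of 7 shorter members, and 20.9% and 13.4% of all genes.

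All 4 Chd7 peaks overlapped an H3K27ac peak (100%, exact Clopper-Pearson interval 39.8% to 100%), as did 77.9% of all WT Chd7 peaks. In the opposite direction, 5 of the 75 H3K27ac peaks at these genes overlapped Chd7, compared with 4.98% of all H3K27ac peaks. The Smarca4 peak bridged 2 adjacent H3K27ac peaks, and the others overlapped 1 each.

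In Chd7-deficient GNPs, no Chd7 peak was called at any of the 10 genes, where the background was 0.205% of genes. The weakest pileup called in this library was 14, compared with 12 in WT, and 28, 24, 8 and 10 of its 96 peaks had a pileup no higher than that of the WT peaks at Smarca4, Smarca2 near the first start, Smarca2 at the internal starts and Arid1a, respectively. Peaks of these heights were thus among those called in the deficient library. A call also depends on the local background and on q, so height alone does not show that these sites could have been called there. The median −log10 q was 10.4 in the deficient and 4.38 in the WT library. The lowest local background of any peak was 2.60 fragments in the WT and 2.25 in the deficient table. Whether depth moved the calls was not tested, because the tables do not give read totals.

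H3K27ac was found at an annotated start of all 10 genes, where the background was 45.5% of protein-coding genes. The pileup of the strongest peak within 1 kb of a start ranged from 34.82 at Actl6b to 235.3 at Arid1b. It exceeded the all-gene median of 71.5 (n = 9996 genes with such a peak) at 9 members, and the upper quartile of 109.18 at 7. These pileups came from 1 library, in which all pileups were whole multiples of 0.941, taken here as the weight of 1 fragment. Peaks taken at the strongest of several starts favour genes with many starts, and Smarca2 had 25 of them.

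**Figure D2:**
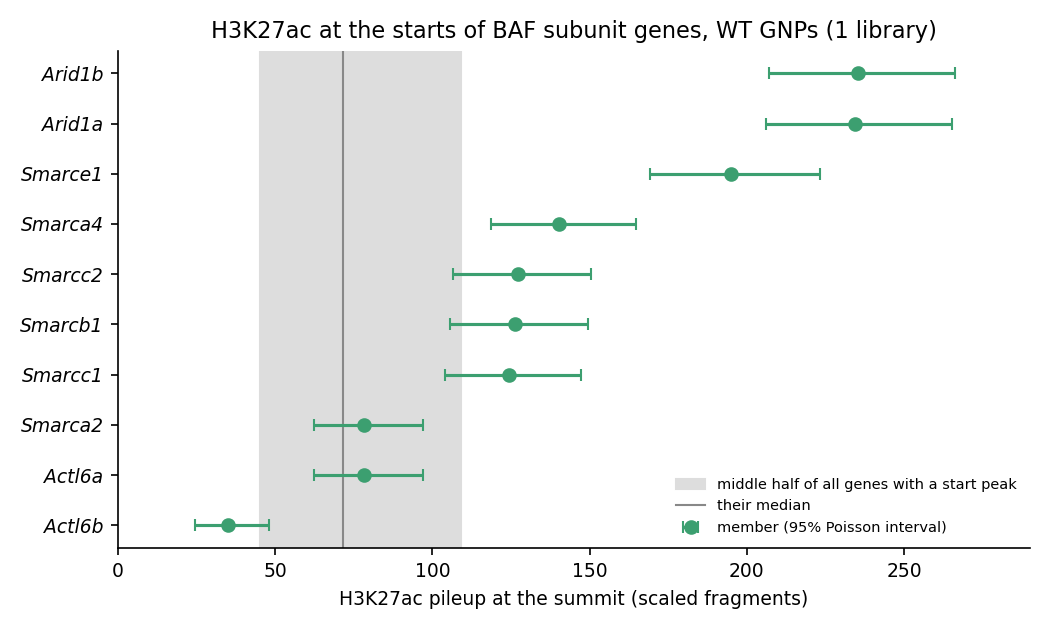
H3K27ac pileup at the summit of the strongest start peak (x axis, scaled fragments) for each BAF subunit gene (y axis) in 1 library of WT GNPs, with 95% Poisson intervals as bars. Grey shading marks the quartiles (45.2 to 109.18) and the line the median (71.5) of all genes with a start peak, and Arid1b, Arid1a and Smarce1 stand at the top while Actl6b lies below the shading.

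Among the ATPase genes, Smarca4 had the higher H3K27ac. Its start carried 2 adjacent peaks with pileups of 94.12 and 140.24 (118.6 to 164.6), the latter 22.7-fold over background at chr9:21616081-21617443. The strongest start peak of Smarca2 was 78.12 (62.2 to 96.8). The ratio of Smarca4 to Smarca2 was 1.80 (95% interval 1.36 to 2.38). The Smarca2 value came from the internal starts at chr19:26746882-26749064, not from the first start, where the peak at chr19:26605140-26605558 had a pileup of 30.12. With the first start alone the ratio was 4.66. The Smarca2 gene also held peaks of 18.82 and 23.53 in its body and 39.53 beside the internal starts, and none in its 50-kb flanks.

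Around Smarca4, 8 of 10 H3K27ac peaks lay in the flanks, 2 of them at the starts of Yipf2 and Timm29. Apart from the start peak, the Smarca4 gene itself had no H3K27ac peak over its 88.1 kb.

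The ARID genes had the highest pileups of the group. Arid1b reached 235.3 (207.03 to 266.3) at chr17:4994797-4997382 and Arid1a 234.35 (206.1 to 265.3) at chr4:133751733-133754978. Their ratio was 0.996 (0.832 to 1.19), and 98.6% of genes with a start peak had no higher value in each case. The Arid1a peak covered the middle of its 3 starts, and the peak at the outermost start (chr4:133756195-133757597) was 68.71. With the outermost start alone, the ratio of Arid1a to Arid1b was 0.292. The Chd7 peak of Arid1a lay within the stronger one.

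The ARID genes differed in the rest of the gene. Arid1b (ENSMUSG00000069729.14, chr17:4994332-5347656) had 21 H3K27ac peaks, of which 18 lay in its introns away from any start, with pileups from 16.94 to 50.82 and a median of 24.94. A run of 13 of them lay within 59.7 kb, chr17:5056775-5116462. None overlapped a Chd7 peak. Arid1a had 3 gene-body peaks, with pileups of 112, 28.24 and 21.65, the strongest at chr4:133728908-133731037 in an intron. Per 100 kb of gene and flanks, Arid1b had 4.63 and Arid1a 3.38 peaks. The median was 1.59 over all genes, with or without H3K27ac at a start. The other members ranged from 0.820 (Smarce1) to 9.91 (Smarcc2), so these densities were not particular to the ARID genes.

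Only these ARID genes among the 10 overlapped a stitched H3K27ac region ranked as a super-enhancer (SE). The share was 4.18% of all protein-coding genes, with or without H3K27ac at a start, whereas all 10 members carried it there. The term SE stands for a cluster of dense enhancer signal. SEs were approximated by joining peaks within 12500 bp and ranking the regions by width times pileup, which gave 612 SEs among 17539 regions. Peaks at starts were not left out, so strong promoter peaks alone can place a region among the SEs. The Arid1a region, chr4:133750561-133757597, joined 3 peaks, of which 2 were at its own starts. It ranked 242 and contained the Chd7 peak. The Arid1b region, chr17:4993541-4997382, consisted of the 2 peaks at its own starts, ranked 318 and contained no Chd7 peak. The run of 13 intronic peaks in Arid1b ranked 2224.

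**Figure D3:**
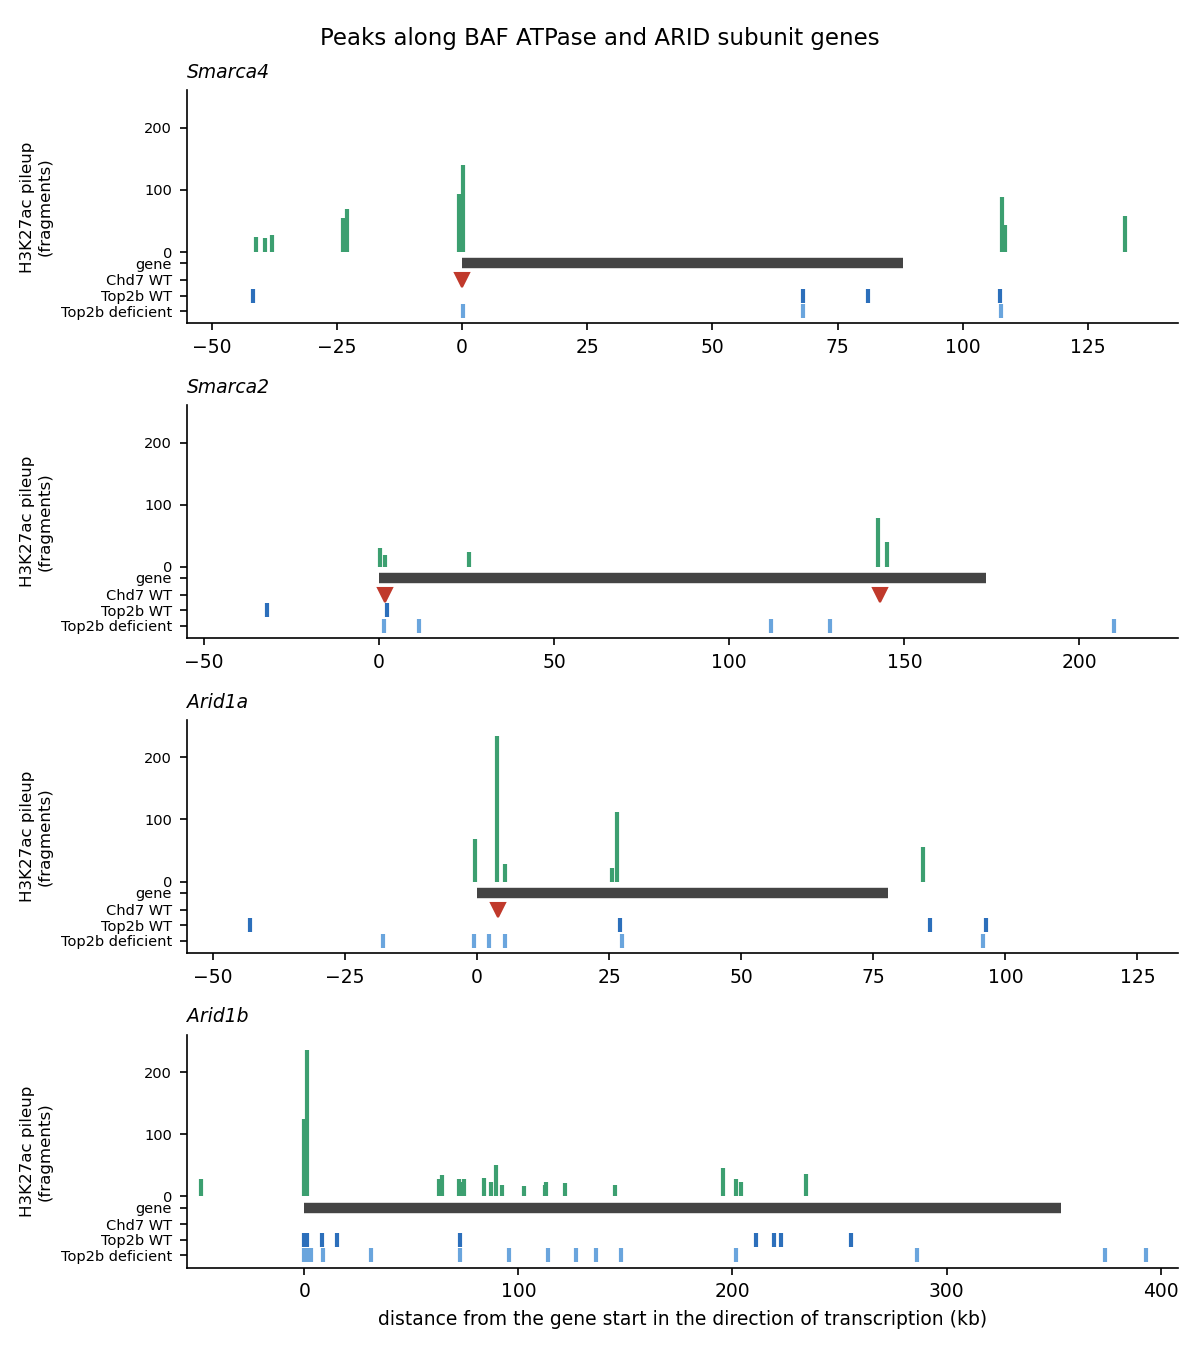
Peaks of 1 library each along Smarca4, Smarca2, Arid1a and Arid1b, with distance from the gene start in the direction of transcription (x axis, kb), H3K27ac pileup as green lines (y axis, scaled fragments), the gene as a grey bar, Chd7 peaks of WT GNPs as red triangles and Top2b peaks of WT and Chd7-deficient CGNs as ticks. Chd7 lies at H3K27ac in the first 3 genes, and in Arid1b 18 low H3K27ac peaks of 16.94 to 50.82 spread through the introns without Chd7.

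Each of the core subunit genes had H3K27ac at a start, and none had Chd7. Of the 25 H3K27ac peaks in their windows, 5 were at own starts, 2 elsewhere in the genes and 18 in the flanks. Smarce1, the gene of an HMG-box subunit, had 1 H3K27ac peak in its whole window, and that peak was strong, with a pileup of 194.82 (169.2 to 223.2) at chr11:99229411-99231416. The peaks at Smarcc2 (127.06, 106.5 to 150.4, chr10:128458597-128460314), Smarcb1 (126.12, 105.67 to 149.4, chr10:75920788-75922168) and Smarcc1 (124.24, 103.9 to 147.3, chr9:110116573-110118345) had overlapping intervals. The ratio of Smarcc1 to Smarcc2, scaffold paralogues that pair within the complex, was 0.978 (0.763 to 1.25) in pileup. By fold enrichment over the local background it was 0.638. The Smarcc1 peak also covers a start of Dhx30, an RNA helicase gene, so that its signal cannot be told apart between these genes. A second Smarcc1 peak of 111.06 lay at the next pair of starts, chr9:110131049-110132757, at no other gene's start. Smarcc2 had 13 peaks in its window, of which 11 were flanking, and the strongest of them (170.35, chr10:128492271-128494992) lay at the start of Myl6, a myosin light chain gene. Smarcb1, whose product anchors the complex to the nucleosome, had 1 further peak of 19.76 within the gene and 3 in its flanks, of which that of 86.59 lay at the start of Mif.

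The actin-related subunits differed at their starts. Actl6a, the subunit of dividing progenitors, had a pileup of 78.12 (62.2 to 96.8) at chr3:32708620-32709497. Actl6b, the neuronal subunit, had 34.82 (24.5 to 48.0) at chr5:137552999-137553458, with 2.99-fold enrichment and a −log10 q of 5.94. The ratio of Actl6a to Actl6b was 2.24 (1.51 to 3.40). The Actl6b value was at the 13.9 percentile of genes with a start peak and the Actl6a value at the 56.0 percentile. Neither gene had a further H3K27ac peak in its body. Stronger peaks stood near Actl6b at other places, of 178.82 at chr5:137530733-137533794 at the starts of Epo and Gnb2, and of 156.24 at chr5:137509953-137511296. The strongest peak near Actl6a (87.53, chr3:32736193-32736847) lay at the starts of Mrpl47 and Ndufb5.

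The upstream sequences of this pair are printed because their H3K27ac differed and the subunits replace each other during differentiation. They come from RefSeq (GRCm38.p6, plus strand, which is the strand of both genes), end before the nearest annotated start, and have GGGCGG and CCAAT on either strand in capitals. The Actl6a stretch is chr3:32708296-32708506 and the Actl6b stretch is chr5:137553296-137553516.
Actl6a: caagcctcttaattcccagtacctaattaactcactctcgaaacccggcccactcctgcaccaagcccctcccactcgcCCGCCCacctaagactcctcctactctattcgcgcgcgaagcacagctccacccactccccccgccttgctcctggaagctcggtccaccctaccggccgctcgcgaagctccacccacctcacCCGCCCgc
Actl6b: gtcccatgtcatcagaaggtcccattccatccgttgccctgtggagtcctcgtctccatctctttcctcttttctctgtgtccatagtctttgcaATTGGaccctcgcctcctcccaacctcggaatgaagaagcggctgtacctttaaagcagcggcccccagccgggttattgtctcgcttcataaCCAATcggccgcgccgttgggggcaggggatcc

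Over the 300 bases of each RefSeq promoter, from 250 before to 50 after the start, Actl6a had 3 GGGCGG and 0 CCAAT, and Actl6b had 2 GGGCGG and 3 CCAAT, of which 0 and 2 fall in the stretch printed. CCAAT is the box bound by NF-Y. GGGCGG was present in 10 of the 10 member promoters in the table and in 35.7% of 32851 promoters, and CCAAT in 1 of 10 and in 37.4%. The table covered 9 members, with 2 promoters for Arid1a and without Smarce1. The 10 promoters had a GC content of 60.7% (Smarcb1) to 81.0% (Smarcc2), all above the median of 52.7% of all promoters, and the GC content of Actl6a and Actl6b was 63.7% and 61.7%. TATAAA was in 0 of the 10 and in 13.6% of all.

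Ranked by start peak, the order was Arid1b, Arid1a, Smarce1, Smarca4, Smarcc2, Smarcb1, Smarcc1, Smarca2 and Actl6a (equal), and Actl6b. Neighbours in this order differed beyond counting error at 3 steps. These were Smarce1 over Smarca4 (ratio 1.39, 1.12 to 1.73), Smarcc1 over Smarca2 (1.59, 1.20 to 2.12) and Actl6a over Actl6b. At 7 members the strongest peak of the window was at the member's own start, and at Smarcc2, Actl6a and Actl6b it was at another gene's start. The 75 peaks had a median pileup of 34.82, compared with 32 for all H3K27ac peaks, with 16 at own starts, 25 elsewhere in the gene and 34 in the flanks.

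**Figure D4:**
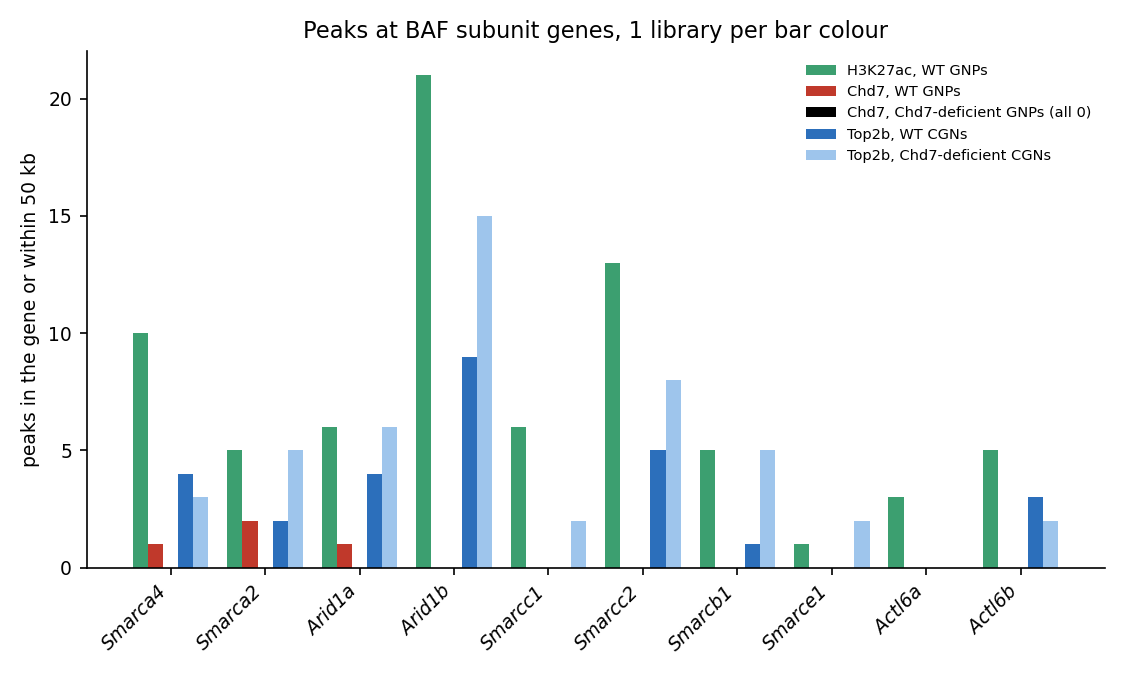
Number of peaks (y axis) in or within 50 kb of each BAF subunit gene (x axis), with 1 bar colour per library. Arid1b has the most peaks for H3K27ac (21) and for Top2b (9 in WT and 15 in Chd7-deficient CGNs), Chd7 peaks occur at 3 genes in WT GNPs, and Chd7-deficient GNPs have 0 throughout.

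Top2b, which the choice of peaks did not use, was measured in CGNs and not in GNPs, so its values are set beside the others and not compared with them as levels. Of the 10 genes, 7 had a Top2b peak centre within 50 kb in WT CGNs (62.1% of all genes) and 9 in Chd7-deficient CGNs (70.9% of all genes). Actl6a had none in either library, and Smarcc1 and Smarce1 had peaks only in the deficient one. Peak numbers in WT and deficient CGNs were 4 and 3 at Smarca4, 2 and 5 at Smarca2, 4 and 6 at Arid1a, 9 and 15 at Arid1b, 0 and 2 at Smarcc1, 5 and 8 at Smarcc2, 1 and 5 at Smarcb1, 0 and 2 at Smarce1, and 3 and 2 at Actl6b. The deficient library had more peaks at 7 genes and fewer at 2. In all, the number was 1.71 times as high in the deficient library, while the libraries as wholes differed 1.26 times. With 1 library per genotype this difference could not be tested.

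At their own starts, 2 members had a Top2b peak in WT CGNs, Arid1b and Smarcc2, compared with 11.7% of all genes and 18.5% of genes with H3K27ac at a start. In Chd7-deficient CGNs 6 did, namely Smarca4, Arid1a, Arid1b, Smarcc2, Smarcb1 and Smarce1, compared with 22.9% of all genes and 39.9% of genes with H3K27ac at a start. The higher share in the deficient library was thus also seen over all genes, and a difference in depth or enrichment between the libraries cannot be told apart from one in Top2b binding. Of the peaks at these genes, 6 were shared, which is 21.4% of the 28 WT and 6 of the 48 deficient peaks, while over all peaks 16.8% of WT peaks overlapped a deficient peak and 13.3% of deficient peaks a WT peak. The deposited Top2b peaks carry no height, so a peak missing from 1 list may have been just under its threshold. H3K27ac peaks overlapped 8 of the 28 WT Top2b peaks and 19 of the 48 deficient ones, compared with 17.4% and 26.6% of all Top2b peaks.

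Top2b peaks of Chd7-deficient CGNs overlapped Chd7 peaks of WT GNPs at Smarca4 and near the first start of Smarca2. These libraries differ in cell state and genotype, and the share of all Chd7 peaks overlapping Top2b is not given here. The Chd7 peak of Smarca4 overlapped a Top2b peak of Chd7-deficient CGNs (chr9:21616248-21616647), and the nearest WT Top2b peak was 41348 bp away. The Chd7 peak near the first Smarca2 start overlapped another deficient one (chr19:26606295-26606694) and lay 102 bp from a WT Top2b peak (chr19:26607106-26607501). At Arid1a the nearest Top2b peaks were 902 bp away in the deficient and 22730 bp away in the WT library. At the internal Smarca2 starts they were 13891 bp and 134380 bp away.

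The other genes of BAF, PBAF and ncBAF complexes, a list of 21, had 11 Chd7 peaks within 50 kb of 8 genes. Such a peak was found for 14.3% of all protein-coding genes and for 21.3% of those with H3K27ac at a start. The 8 genes were Pbrm1, Dpf3, Smarcd2, Ss18l1, Actb, Bcl7a, Bcl7b and Bcl7c, with 2 peaks each at the last 3 and 1 at the rest. At Pbrm1, Bcl7b and Bcl7c the strongest peak lay outside the gene. Chd7 was within 50 kb of 2 of the 6 listed genes of at least 75 kb and of 6 of the 15 shorter ones. Over all genes these shares were 19.9% and 13.3%. At 4 of the 21 listed genes, Smarcd2, Ss18l1, Bcl7a and Actb, a peak reached a start. The share was 4.00% of all genes and 8.29% of those with H3K27ac at a start. By the strongest peak of each gene, the highest value was at Bcl7a (5.84-fold, −log10 q 8.11), the gene of an accessory subunit, and the lowest at Smarcd2 (2.77-fold, −log10 q 1.70). All 11 overlapped H3K27ac, as did 77.9% of all WT Chd7 peaks. In Chd7-deficient GNPs 0 genes of the list had a peak, compared with 0.205% of all genes. H3K27ac was at a start of 17 of the 21, with a median pileup of 138.35 compared with 126.59 for the 10 members, and 5 overlapped an SE. Over all genes, 45.5% had H3K27ac at a start, and 4.18%, counted with or without it, overlapped an SE. No start peak was found at Phf10, Dpf1, Smarcd3 and Bcl11b. Among the listed genes with a start peak, the pileup ranged from 38.59 at Dpf3 to 320 at Actb, and was 179.77 at Ss18l1 and 138.35 at Ss18. Chd7 was within 50 kb of 4 of the 9 Chd family genes, namely Chd3, Chd6, Chd8 and Chd7 itself. The peak at Chd8 lay outside the gene. H3K27ac was at a start of 8 of the 9. The background was 14.3% of all genes and 21.3% of those with H3K27ac at a start.

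The H3K27ac library carried the mark at a start of 9 of 10 GNP marker genes, with pileups such as 195.77 at Zic1, 121.41 at Barhl1 and 32 at Atoh1, but not at Ccnd1. Of 17 marker genes of Purkinje cells, interneurons, glia, microglia and endothelium, 6 had a start peak (Pax2, Gad1, Gfap, Slc1a3, Mbp and Csf1r), with pileups of 20.71 to 57.41. The median was 119.53 for the first list and 32.47 for the second. The Actl6b pileup of 34.82 lay within the range of both lists, and the part of other cells in it was not tested.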

How the data were processed

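Peak files of 5 ChIP-seq libraries were analysed, with 1 sample per condition. Per the study's methods, reads were trimmed with Trim Galore and mapped to mm10 with Bowtie 1.0.0, keeping single alignments, so that reads shared by near-identical sequences are lost. Peaks of Chd7 and H3K27ac were called per library with macs2 at default parameters. Top2b peaks were called with homer, and their files hold positions of fixed width. The methods give a lower limit on the mapped reads, but read totals for each library and the control used by macs2 are not given in the sources used here, and the input libraries were not analysed here.

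The authors deposited the pileup as a coverage signal, the fragments at the summit. The other deposited columns are −log10 p, fold enrichment and −log10 q, from which the decimal marks were lost. They were divided by 100000, and −log10 p recomputed from pileup and background differed by at most 0.0026. H3K27ac pileups were whole multiples of 0.941183 in 100% of peaks (tolerance 0.02), which gave fragment numbers for exact Poisson intervals. Ratios have exact binomial intervals. All intervals cover counting error only.

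Peaks were assigned by centre (50 kb), a start peak lay within 1 kb of a start of a protein-coding transcript in GENCODE M21, and overlap meant at least 1 bp. The genes named were the members, other BAF genes with a Chd7 peak, and genes whose start a member's strongest peak covered. Other flanking genes were named after their values were seen. The members and lists were chosen with earlier results of these data known. Overlap and window counting was tested on simulated peaks. Alternatives changed the threshold, window, overlap, stitching and start. Software comprised samtools 1.23.1, Python 3.11.15, scipy 1.17.1, numpy 2.4.6, matplotlib 3.10.9 and pandas 2.3.3.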

Additional observations from a re-analysis of the deposited data

How the results depend on the processing

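Of 35 alternative values, 20 stayed close to the reported one, 15 moved and 0 reversed, where close means a count within 1.5 times or a ratio within its 95% interval. With so few members this lets a count of 3 become 2, as for members with Chd7 at −log10 q of at least 5 or within 500 bp of a start, and 7 become 5, as for members with WT Top2b from 5 kb upstream to 1 kb downstream. Chd7 at these genes rested on peaks of modest strength. With −log10 q of at least 5, the Chd7 peaks fell from 4 to 2, and 1 member kept one at its own start, and with −log10 q of at least 10, 0 peaks and 0 members remained. The 75 H3K27ac peaks became 36 with −log10 q of at least 10, 42 from 5 kb upstream to 1 kb downstream, and 36 in the gene body alone. The 28 WT and 48 Chd7-deficient Top2b peaks became 14 and 30 in the narrower window. Another 3 choices were added after seeing the data. A limit of 100 kb for long genes left 1 of them with Chd7 in place of 3. Fold enrichment in place of pileup gave 2.40 for Smarca4 over Smarca2, 0.824 for Arid1a over Arid1b and 0.638 for Smarcc1 over Smarcc2, and the outermost start alone gave 4.66 and 0.292 for the first pairs, and could not be computed for Actl6a, which has no peak there. A stricter set of Top2b peaks was not run, since these peaks carry no score. No paired analysis was possible because each condition had 1 sample. Read depth per library was not known, so a missing peak is not evidence that binding was absent.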
